A study of Mus musculus with 16 samples.

Results

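The machinery that delivers secreted and membrane proteins into the endoplasmic reticulum (ER) was followed in mouse lung tumour cells with and without eIF4A2, a DEAD-box RNA helicase. The gene set was a list of 43 symbols covering the signal recognition particle (SRP) and its receptor, the Sec61 channel with Sec62 and Sec63, TRAM, the TRAP complex, signal peptidase, oligosaccharyltransferase (OST), the ER membrane complex (EMC) and the BAP proteins. Of these, 42 were found by symbol among 15235 genes with ribosome-protected fragments (RPFs) and 20622 genes with total RNA, and Tusc3 was not analysed here. All 42 had enough counts to be tested in both kinds of library.

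KM cells came from lung tumours of a mouse with Rosa26 LSL-MYC/LSL-MYC alleles, in which an adenovirus carrying Cre under the surfactant protein C promoter had switched on the transgene, and both lines descend from 1 male animal. KM_NTC cells carried a guide RNA with no target and KM_4A2cr cells carried a guide against the Eif4a2 coding region, each with Cas9 from a lentivirus, and the KM_4A2cr line was a pool of 4 clones without eIF4A2 protein on western blots. Both lines were untreated and harvested from 10 cm plates at 90% confluency, in 4 replicates plated on different days, and each lysate gave 1 RPF library and 1 cytoplasmic total RNA library, making 16 libraries. Effects of the guide, of the clones chosen and of the lines' separate histories cannot be told apart.

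SRP is an RNA and protein particle that binds a signal sequence as it leaves the ribosome and carries the ribosome to its receptor on the ER. The chain then enters the Sec61 channel, helped by TRAM, TRAP, Sec62 and Sec63. Signal peptidase removes the signal sequence, OST attaches N-linked glycans, and EMC inserts membrane segments that Sec61 handles poorly. Cells that secrete heavily carry much of this machinery, and several of its genes are known targets of the unfolded protein response.

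RPF libraries held 4512403 to 9621848 counts in coding sequences and total RNA libraries 5350919 to 9312622 expected counts. The mean count of a member over 8 libraries ranged from 72 for Emc6 to 17186 for Rpn2 in RPFs, and from 139 for Sec11c to 10336 for Ssr3 in total RNA. Eif4a2 itself, still read as RNA after editing, had RPFs of 97.7, 122, 99.8 and 389 CPM (counts scaled to the library total after TMM correction) in KM_NTC. In KM_4A2cr they were at 51.0, 88.4, 74.8 and 346 CPM, lower in 4 of 4 pairs and down by 0.49 ± 0.15 on the log2 scale (edgeR adjusted p = 0.0941). The RPF differences within pairs 1 to 4 were -0.93, -0.46, -0.42 and -0.17. Total RNA of Eif4a2 was at -0.18 ± 0.13 and was not called (edgeR adjusted p = 0.504). All 6 epithelial markers were expressed, with a summed total RNA of 4695 to 6225 CPM in KM_NTC and 5848 to 8276 CPM in KM_4A2cr. Of 8 alveolar type II markers, Sftpc and Sftpb were at 0 in every library and only Abca3 exceeded 10 CPM. Fibroblast markers Col3a1, Dcn and Lum and leukocyte markers Adgre1 and Lyz2 were at 0, and total RNA sums of fibroblast and of endothelial markers stayed under 10 CPM. Leukocyte sums of total RNA were 20.8 to 164 CPM in KM_NTC and 24.9 to 155 CPM in KM_4A2cr, almost all of it Cd68. In RPFs the leukocyte sums were 75.1 to 779 CPM in KM_NTC and 98.3 to 695 CPM in KM_4A2cr. Fibroblast and endothelial RPF sums reached at most 21.4 and 17.2 CPM. Chromosome 2 holds the 5 members Srp14, Sec61a2, Rpn2, Emc4 and Emc7. Over all 833 genes tested there, the median RPF log2 fold change was -0.21, against 0.0 elsewhere. In total RNA it was -0.17, against 0.02. The 5 members had medians of 0.17 in RPFs and 0.10 in total RNA, and the other 37 had 0.28 in each. The part of this shift in the member values was not tested. In bulk libraries, fewer cells of a kind and less RNA per cell cannot be told apart, and CPM says nothing of the amount per cell.

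Levels between genes were compared in TPM, a measure of transcript abundance that takes length into account. Ssr3, the gamma subunit of TRAP, had the highest total RNA in KM_NTC, at 951 ± 136 TPM (SD, n = 4), and the ribophorin Rpn1 followed at 576 ± 87.3 TPM. The signal peptidase subunit Spcs1 had 552 ± 56.6 TPM, within the spread of Rpn1. At the other end, Srp54a, the GTPase subunit of SRP, had 27.7 ± 10.7 TPM and Srp68 had 28.9 ± 7.89 TPM, each within the SD of the other. The rank of Srp54a is uncertain, because reads may be shared with its near-identical copies Srp54b (33.4 ± 13.2 TPM) and Srp54c (31.4 ± 11.7 TPM). Within a complex the levels were far from equal. The pore-forming Sec61a1 stood at 268 ± 47.6 TPM and its paralogue Sec61a2 at 45.7 ± 5.23 TPM. Sec11a and Sec11c, alternative catalytic subunits of signal peptidase, stood at 246 ± 27.2 and 59.2 ± 9.75 TPM.

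**Figure D1:**
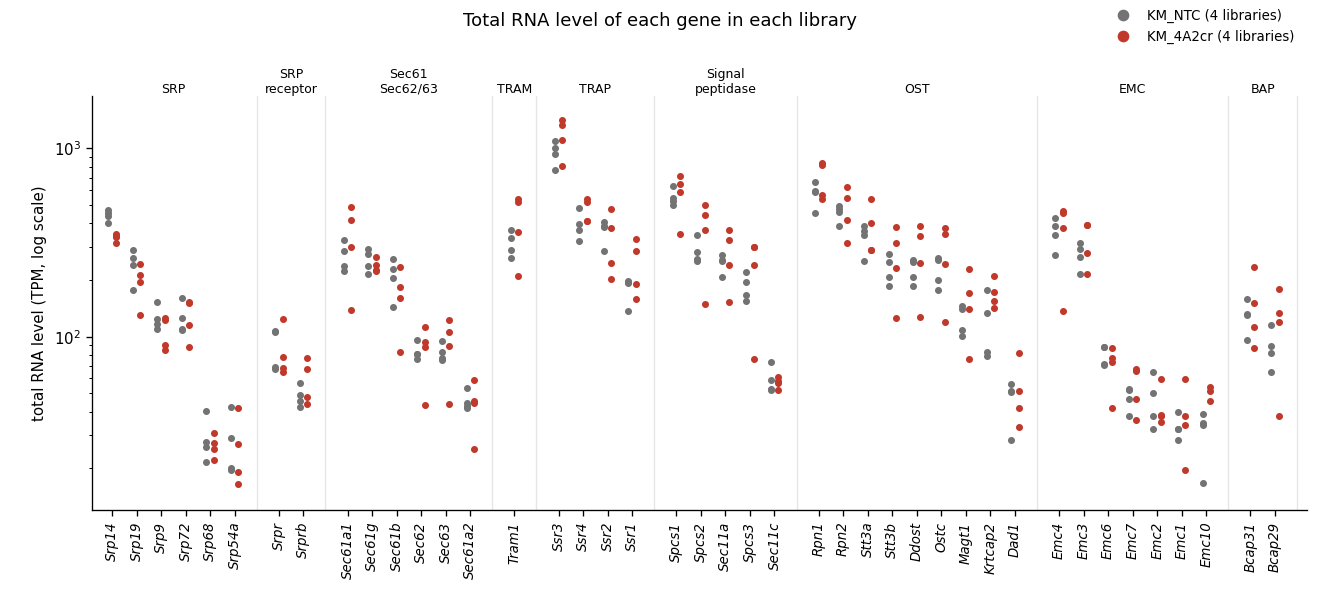
Total RNA of each member in TPM on a log axis, 1 point per library, with KM_NTC in grey and KM_4A2cr in red and the members ordered within each complex. Ssr3 lies highest in both lines, and the SRP subunits Srp68 and Srp54a have the lowest means in KM_NTC. Srp54a may share reads with its near-identical copies Srp54b and Srp54c, so its rank is uncertain.

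RPFs of 6 members rose in KM_4A2cr and none fell, where a call was a Benjamini-Hochberg adjusted p under 0.1 over all 10291 genes in the quasi-likelihood test of edgeR, blocked by replicate pair. They were Tram1, the TRAP subunits Ssr1, Ssr3 and Ssr4, the OST subunit Krtcap2 and the EMC subunit Emc10. Across all genes, 6.6% were called higher and 3.72% lower. In total RNA, only Krtcap2 and Ssr4 rose and no member fell, against 4.35% of 10880 genes called higher and 1.78% lower. The fitted log2 fold change was above 0 for 37 of 42 members in RPFs and for 37 of 42 in total RNA. Its median was 0.27 in RPFs and 0.28 in total RNA, beside medians of -0.01 and 0.01 over all genes. In CPM the ranges of both lines overlapped for each of the 42 members in RPFs and in total RNA, as they did for most genes, with 2.13% and 1.97% of all genes not overlapping, so the calls rest on differences within pairs. Without the block edgeR called 0 members and 0 of all genes in either kind of library. Without replicate 1, 2 or 3 it called 0 members, and the genes called higher in RPFs numbered 157, 94 and 29, so the loss was shared by genes at large. At an adjusted p under 0.05, Tram1 in RPFs and Krtcap2 in total RNA were the calls left, beside 3.11% and 2.31% of all genes called higher. DESeq2 called 12 members higher in RPFs and 4 in total RNA, beside 6.52% and 4.03% of all genes.

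**Figure D2:**
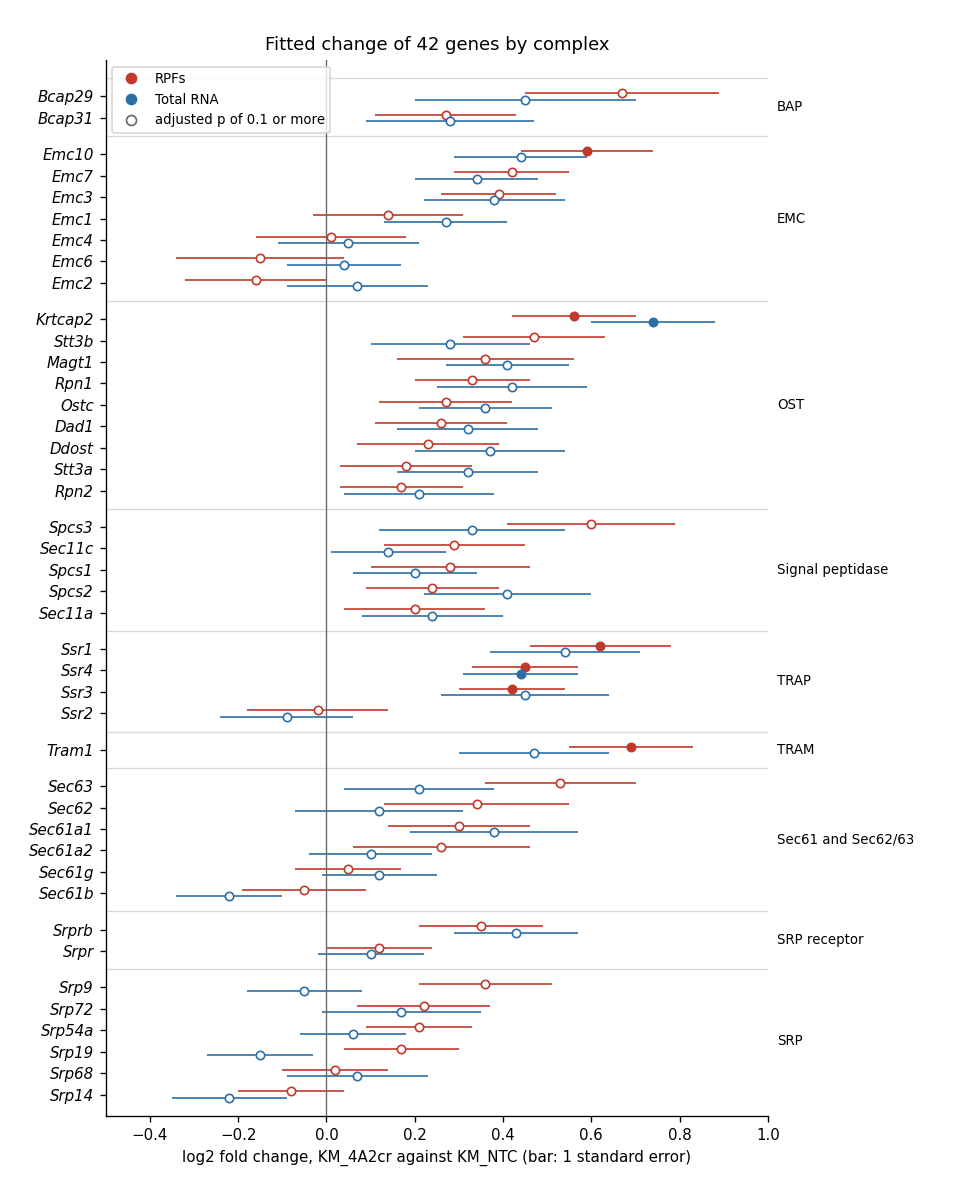
Fitted log2 fold change of each of the 42 members, KM_4A2cr against KM_NTC, in RPFs (red) and total RNA (blue), grouped by complex, with bars of 1 standard error and filled points for an adjusted p under 0.1. Filled points appear for Tram1, Ssr1, Ssr3, Ssr4, Krtcap2 and Emc10 in RPFs and for Ssr4 and Krtcap2 in total RNA, all to the right of 0.

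None of the 6 SRP subunits passed the test in RPFs or in total RNA with edgeR or with DESeq2. In RPFs 1 had an unadjusted edgeR p under 0.05, beside 2411 of 10291 genes, and in total RNA 0 did, beside 1995 of 10880. The largest RPF value belonged to Srp9, which with Srp14 forms the domain that pauses elongation, at 0.36 ± 0.15 (adjusted p = 0.177). The smallest belonged to its partner Srp14, at -0.08 ± 0.12 (adjusted p = 0.725). In total RNA the median of the 6 was 0.01, and it ranged from -0.22 for Srp14 to 0.17 for Srp72, which binds SRP RNA together with Srp68. Reads of Srp54a may be shared with its near-identical copies Srp54b and Srp54c and are uncertain. The receptor subunits did not pass either, with Srpr, the alpha subunit that docks SRP, at 0.12 ± 0.12 in RPFs and Srprb, the membrane-anchored beta subunit, at 0.35 ± 0.14 (adjusted p = 0.162).

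No subunit of the Sec61 channel, nor Sec62 or Sec63, passed with edgeR in RPFs or total RNA. Sec63, the J-domain protein that recruits the lumenal chaperone BiP to the channel, had the largest RPF value of the 6. At 0.53 ± 0.17 it fell short of the threshold (edgeR adjusted p = 0.104). It was the 1 subunit with an unadjusted edgeR p under 0.05, beside 2411 of 10291 genes. It was also the 1 called by DESeq2, beside 6.52% of all genes called higher. Sec61b, the small beta subunit, had the smallest at -0.05 ± 0.14. Sec61a1, which forms the pore, was at 0.30 ± 0.16 in RPFs and 0.38 ± 0.19 in total RNA, and the gamma subunit Sec61g was at 0.05 ± 0.12 and 0.12 ± 0.13. Sec62, which acts with Sec63 on chains that arrive after translation, was at 0.34 ± 0.21 in RPFs.

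Tram1, a membrane protein beside the channel that contacts signal sequences (ENSMUSG00000025935.11), had the largest fitted RPF value of the 42 members, close to that of Bcap29 at 0.67 ± 0.22, and without replicate 4 both Bcap29 (0.96) and Spcs3 (0.86) exceeded it (0.83). Its RPFs were at 327, 207, 382 and 471 CPM in KM_NTC replicates 1 to 4 and at 629.7, 358, 634 and 566 CPM in the matching KM_4A2cr replicates. Every KM_4A2cr library exceeded its own pair, and replicate 2 was the lowest in both lines, so that KM_4A2cr replicate 2 fell inside the KM_NTC range. Tram1 RPFs rose by 0.69 ± 0.14 (log2 fold change ± SE, n = 4 pairs, edgeR adjusted p = 0.0326). Total RNA of Tram1 was at 527, 349, 583 and 556 CPM in KM_NTC and 854, 514, 928 and 542 CPM in KM_4A2cr. It was higher in pairs 1 to 3 and level in pair 4, with a fitted value of 0.47 ± 0.17 that missed the threshold (adjusted p = 0.170).

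TRAP sits beside the channel and helps weak signal sequences open it. In RPFs 3 of its 4 subunits were called higher, beside 6.6% of all genes. Ssr1, the alpha subunit (ENSMUSG00000021427.11), had RPFs of 755, 528, 767 and 1331 CPM in KM_NTC and of 1469, 789.7, 1373 and 1429.8 CPM in KM_4A2cr. In all, 3 of the KM_4A2cr libraries lay above every KM_NTC library, and KM_4A2cr replicate 2 lay low among them. Ssr1 RPFs rose by 0.62 ± 0.16 (edgeR adjusted p = 0.0648), and its total RNA was at 0.54 ± 0.17 (adjusted p = 0.126).

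Ssr4, the delta subunit (ENSMUSG00000002014.13), was called in both kinds of library. Its RPFs were at 242, 194, 308 and 412 CPM in KM_NTC and 362, 289, 389 and 510 CPM in KM_4A2cr, and its total RNA at 123, 91.0, 135 and 199 CPM against 183, 125, 198 and 228 CPM. Both measures were higher in 4 of 4 pairs, and replicate 4 held the highest value of each line. The rise was 0.45 ± 0.12 in RPFs (adjusted p = 0.0736) and 0.44 ± 0.13 in total RNA (adjusted p = 0.0905), both by edgeR. Ssr3, the gamma subunit (ENSMUSG00000027828.13), had RPFs of 808, 649, 1021 and 1670 CPM in KM_NTC and 1205, 909.9, 1340.3 and 1942 CPM in KM_4A2cr. They rose by 0.42 ± 0.12 (edgeR adjusted p = 0.0910), again higher in every pair, while total RNA was higher in 3 of 4 pairs at 0.45 ± 0.19 (adjusted p = 0.246). Ssr2, the beta subunit, stood apart from the rest of TRAP with -0.02 ± 0.16 in RPFs and -0.09 ± 0.15 in total RNA, and its difference from the other subunits was not tested.

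**Figure D3:**
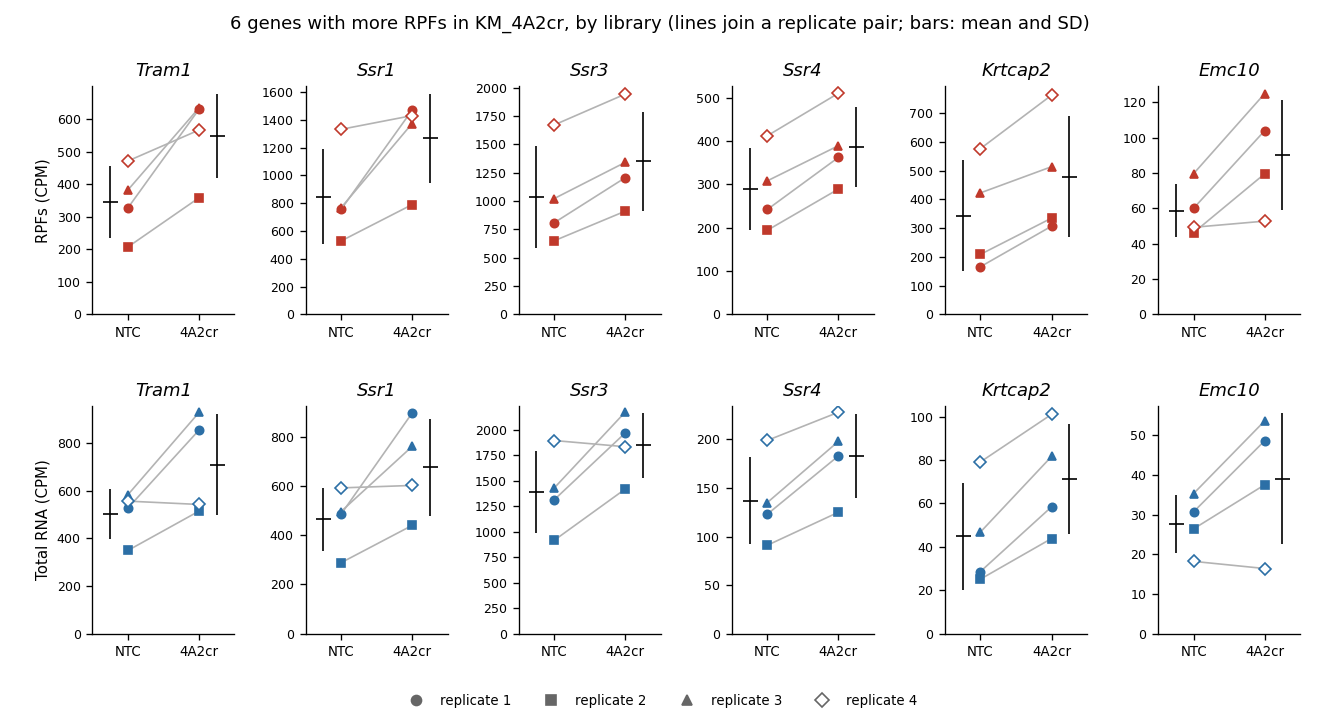
CPM of the 6 members with more RPFs in KM_4A2cr, in every library, RPFs above and total RNA below, with lines joining a replicate pair, open symbols for replicate 4 and bars for the mean and SD of each line. All 24 RPF lines slope upwards, whereas the total RNA lines of Tram1, Ssr3 and Emc10 slope slightly down in replicate 4.

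None of the 5 signal peptidase subunits passed, although all had RPF values above 0. Spcs3, an accessory subunit on the lumenal side, was at 0.60 ± 0.19 in RPFs (adjusted p = 0.106) and 0.33 ± 0.21 in total RNA, and DESeq2 called its RPFs higher. Sec11a, a catalytic subunit, had the smallest RPF value at 0.20 ± 0.16. All 5 were higher in RPFs in pairs 1 to 3 and lower in pair 4.

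All 9 OST members had fitted values above 0 in RPFs and in total RNA. By edgeR 1 of them was called, beside 6.6% and 4.35% of all genes called higher. Outside the member list, the OST subunit Ost4 was at -0.29 ± 0.28 in RPFs and -0.08 ± 0.15 in total RNA. Tmem258 was at 0.24 ± 0.16 and 0.34 ± 0.13, and neither was called. Without replicate 4, edgeR called Ost4 lower in both kinds, beside 14.3% and 12.0% of all genes. It called Tmem258 higher in total RNA, beside 17.8%. Krtcap2, a small accessory subunit of the OST that acts at the channel (ENSMUSG00000042747.13), had RPFs of 166, 209, 423 and 577 CPM in KM_NTC and 307, 335, 514 and 763 CPM in KM_4A2cr. Its total RNA was at 28.6, 25.1, 46.8 and 79.1 CPM in KM_NTC and 58.4, 43.8, 81.6 and 101 CPM in KM_4A2cr. Each pair differed in the same direction, although replicates spread widely within a line and replicate 4 was the highest in both. Krtcap2 rose by 0.56 ± 0.14 in RPFs (adjusted p = 0.0584) and by 0.74 ± 0.14 in total RNA (adjusted p = 0.0208), the largest total RNA change among the members, by edgeR.

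The other OST members ranged in RPFs from 0.17 ± 0.14 for Rpn2, a ribophorin, to 0.47 ± 0.16 for Stt3b (edgeR adjusted p = 0.114). Stt3b is the catalytic subunit that also glycosylates finished chains, and DESeq2 called its RPFs higher. Stt3a, the catalytic subunit at the channel, was at 0.18 ± 0.15 in RPFs and 0.32 ± 0.16 in total RNA. Its footprints were counted on a 285-nt isoform that carried 64.5% of the Stt3a TPM but 3.42% of its expected counts, against 2288 to 3797 counts per library on the 5867-nt isoform. Footprints on Stt3a outside that short isoform were therefore not counted. Magt1, the oxidoreductase subunit of the Stt3b complex, was at 0.36 ± 0.20 in RPFs and 0.41 ± 0.14 in total RNA.

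Of 7 EMC members, 5 had fitted values above 0 in RPFs and all 7 in total RNA. By edgeR 1 of them was called higher in RPFs, beside 6.6% of all genes. Outside the member list, the EMC subunit Mmgt1 was at 0.44 ± 0.20 in RPFs and 0.21 ± 0.20 in total RNA. Emc8 was at -0.30 ± 0.32 and -0.14 ± 0.15, and Emc9 at -0.59 ± 0.28 in RPFs and not tested in total RNA. None of these was called. RPFs of Emc8 and Emc9 were sparse, with means of 2.55 and 2.53 CPM in KM_NTC. Emc10, a lumenal subunit (ENSMUSG00000008140.19), had RPFs of 60.1, 46.3, 79.7 and 49.3 CPM in KM_NTC and 104, 79.6, 125 and 52.8 CPM in KM_4A2cr. Replicates 1 to 3 of KM_4A2cr were well above their pairs and replicate 4 was nearly level with its own. RPFs of Emc10 rose by 0.59 ± 0.15 (edgeR adjusted p = 0.0604), and total RNA was at 0.44 ± 0.15 (adjusted p = 0.154). Emc7 and Emc3, the latter part of the insertase core, had RPF values of 0.42 ± 0.13 and 0.39 ± 0.13. They were called higher by DESeq2 but not by edgeR. Emc2, a cytosolic scaffold subunit, had the smallest RPF value of the 7 members at -0.16 ± 0.16. The BAP proteins, ER membrane sorting factors, did not pass with edgeR, with Bcap29 at 0.67 ± 0.22 (adjusted p = 0.111) and Bcap31 at 0.27 ± 0.16 in RPFs, and DESeq2 called Bcap29 higher.

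In replicate 4 the median difference was the lowest of the 4 pairs for every complex but SRP, where it was the highest. Over all members, the median difference in RPFs within pairs 1 to 4 was 0.59, 0.36, 0.29 and -0.01, and in total RNA it was 0.56, 0.32, 0.30 and -0.10. The same medians over all genes lay between -0.06 and 0.02. For signal peptidase the RPF medians were 0.62, 0.34, 0.31 and -0.22, and for the 6 genes of Sec61, Sec62 and Sec63 they were 0.63, 0.47, 0.23 and -0.15. SRP showed the opposite order, with RPF medians of 0.05, 0.04, 0.16 and 0.34 and total RNA medians of -0.25, -0.09, -0.06 and 0.13.

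Members higher in 4 of 4 pairs numbered 14 of 42 in RPFs, against 14.1% of all genes, and 8 of 42 in total RNA, against 12.4%. Members higher in pairs 1 to 3 and lower in pair 4 numbered 18 of 42 in RPFs, against 13.0% of all genes, and 24 of 42 in total RNA, against 13.6%. No SRP subunit was among them. Sec62 was an example, with RPF differences of 0.75, 0.42, 0.71 and -0.52, and so was Bcap29, with 1.20, 0.81, 0.88 and -0.24.

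Without replicate 4, RPFs of 27 of 42 members were called higher, against 19.1% of all genes, and total RNA of 28 of 42, against 17.8%. The calls covered 25 members in both kinds of library, among them Sec61a1, Sec62, Sec63, Srprb, Stt3b, Rpn1, Ddost, Spcs1, Spcs2 and Spcs3. Both kinds come from the same lysates, and the share of all genes called in both was not computed. One member was called lower in each, Emc2 in RPFs at -0.31 ± 0.12 (adjusted p = 0.0853), beside 14.3% of all genes, and Srp14 in total RNA at -0.32 ± 0.09 (adjusted p = 0.0169), beside 12.0%. SRP had 0 subunits called higher in either by edgeR, and its medians were 0.08 and -0.12. The member medians then stood at 0.41 in RPFs and 0.43 in total RNA.

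The libraries of replicate 4 were unlike the others in both lines. Hspa5, the gene of the chaperone BiP, had RPFs of 11811 and 15462 CPM in the replicate 4 libraries and of 3928 to 6119.8 CPM in the other 6. Cd68, a lysosomal protein listed as a macrophage marker, had total RNA of 162 and 153 CPM there against 19.4 to 39.4 CPM elsewhere, while Adgre1 and Lyz2 were at 0 in all and Ptprc did not exceed 1.76 CPM. These 2 RPF libraries also had the lowest totals, 5703271 and 4512403 counts. The part of these differences in the member values was not tested.

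**Figure D4:**
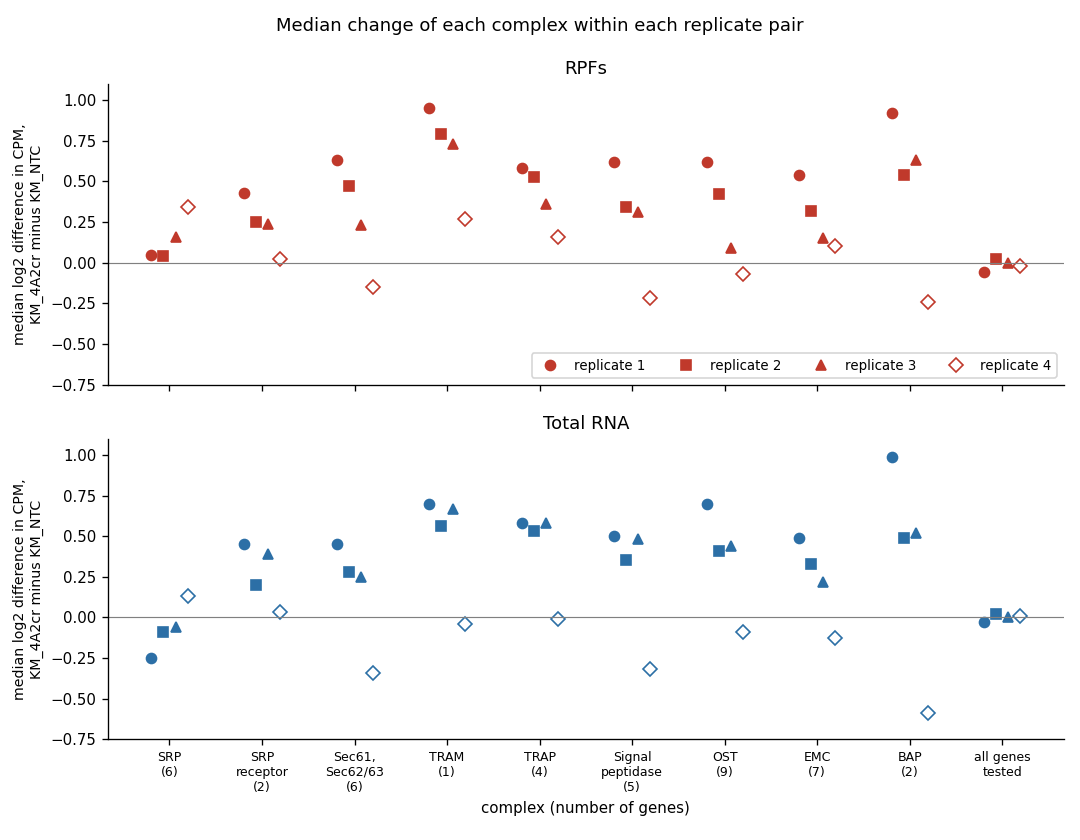
Median log2 difference in CPM between KM_4A2cr and KM_NTC for the members of each complex, within each replicate pair, RPFs above and total RNA below, with the median of all genes at the right. Open diamonds, replicate 4, are the lowest of the 4 pairs for every complex except SRP, where they are the highest.

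Translational efficiency, the change in RPFs relative to that in total RNA, was tested as an interaction in 1 model of all 16 libraries. It rose for Srp9 and Sec63 and fell for no member, against 1.87% of 9989 genes called higher and 1.0% called lower. The median over members was 0.01, beside -0.02 over all genes, and 22 of 42 were above 0. The OST had 1 of 9 members above 0, Stt3b at 0.20 ± 0.09, and a median of -0.09. SRP had 5 of 6 members above 0 and a median of 0.14. Over all genes 47.4% were above 0, and the difference between these complexes was not tested.

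Srp9 (ENSMUSG00000026511.8) had RPFs of 19.1, 22.3, 17.7 and 22.0 CPM in KM_NTC and 20.3, 25.6, 25.7 and 35.0 CPM in KM_4A2cr. Its total RNA was at 58.5, 68.3, 67.2 and 73.4 CPM against 47.9, 62.9, 72.3 and 79.5 CPM. The ratio of RPF CPM to total RNA CPM was 0.326, 0.327, 0.263 and 0.300 in KM_NTC and 0.424, 0.407, 0.355 and 0.440 in KM_4A2cr. All 4 ratios in KM_4A2cr were above all 4 in KM_NTC, although neither RPFs nor total RNA passed on its own. The rise in translational efficiency was 0.41 ± 0.12 (edgeR adjusted p = 0.0905), and DESeq2 did not call it (adjusted p = 0.153). By edgeR it was 0.34 ± 0.13 (adjusted p = 0.196) when only the isoform used for RPFs was counted as total RNA.

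Sec63 (ENSMUSG00000019802.14) had RPFs of 341, 254, 357 and 504 CPM in KM_NTC and 611, 378, 616 and 477 CPM in KM_4A2cr. Its total RNA was at 277, 216, 321 and 306 CPM against 425, 268, 385 and 242 CPM. The ratio of RPF to total RNA CPM lay between 1.11 and 1.65 in KM_NTC and between 1.41 and 1.97 in KM_4A2cr. It was higher in KM_4A2cr within every pair, and the lines overlapped through KM_NTC replicate 4. The fitted rise was 0.32 ± 0.09 (edgeR adjusted p = 0.0900), and DESeq2 called it too (adjusted p = 0.0543).

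**Figure D5:**
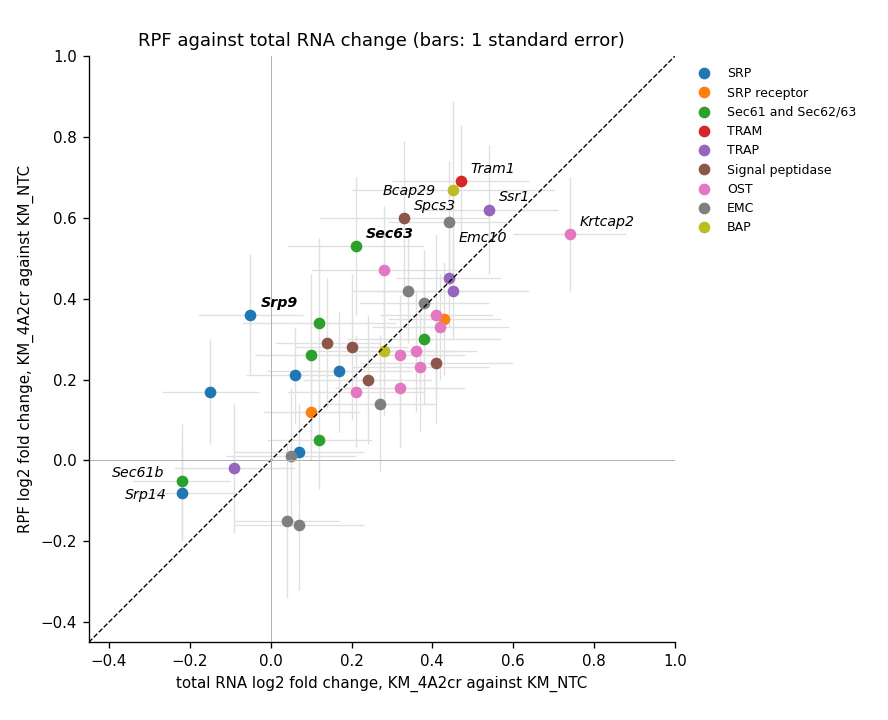
RPF log2 fold change against total RNA log2 fold change of the 42 members, coloured by complex, with bars of 1 standard error and a dashed line where both are equal. Most members lie near the line, and Srp9 and Sec63 (bold), the only 2 with a called change in translational efficiency, lie above it.

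For 23 members with several isoforms, RPFs were counted on a single one. That isoform held under 25% of the gene's expected counts for 5 members, at 3.42% for Stt3a, 11.4% for Spcs2, 12.7% for Sec61a2, 15.8% for Sec61g and 24.1% for Ssr1, and their efficiency values carry that limit. RPFs of paralogues such as Sec61a1 and Sec61a2, or Stt3a and Stt3b, can also share reads in conserved stretches.

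A list of 34 other genes of ER targeting and folding was read in the same fits. Of 33 tested in RPFs, 2 were called higher and 1 lower, beside 6.6% and 3.72% of all genes, and their median was 0.13. Dnajb9, a lumenal co-chaperone of BiP, had RPFs of 143, 110, 170.2 and 483 CPM in KM_NTC and 242, 182, 332 and 889 CPM in KM_4A2cr. It rose in every pair, by 0.83 ± 0.12 in RPFs (adjusted p = 0.0102) and 0.68 ± 0.15 in total RNA (adjusted p = 0.0413, edgeR). Dnajb9 was the only 1 of 33 called in total RNA, beside 4.35% of all genes called higher.

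Tmem147, part of the translocon for multipass proteins, rose by 0.51 ± 0.15 in RPFs (adjusted p = 0.0943), and Lrrc59, an ER ribosome receptor, fell by 0.38 on the log2 scale with a standard error of 0.12 (adjusted p = 0.0963). In translational efficiency, edgeR called Dnajc1 higher at 0.35 ± 0.10 (adjusted p = 0.0839) and Wdr83os lower at -0.54 ± 0.15 (adjusted p = 0.0890). Both were singled out after their values were seen, and 1.87% of all genes were called higher and 1.0% lower. The 8 genes of the GET and SND routes, which bring proteins to the ER without SRP, had an RPF median of 0.00. They had 0 calls by edgeR or DESeq2, and 0 at an unadjusted edgeR p under 0.05, beside 2411 of 10291 genes. Without replicate 4, edgeR called 3 of these 8 higher in RPFs, beside 19.1% of all genes. The 3 were Get1 (0.37), Camlg (0.49) and Tmem208 (0.39), all chosen after their values were seen. The 5 lumenal chaperones and co-chaperones, Hspa5 and Dnajb9 among them, had a median of 0.40 and were all above 0.

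Promoter windows of 250 bases before to 50 after an annotated start were read from RefSeq (GRCm38.p6) for 32 of the members, 35 windows in all. They were searched on both strands for the ER stress response elements ERSE (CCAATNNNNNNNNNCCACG) and ERSE-II (ATTGGNCCACG), the core of the unfolded protein response element (TGACGTG) and the CCAAT box, which overlaps ERSE and, on the other strand, ERSE-II. ERSE was in 0 member windows and in 0.119% of all 32851 windows. ERSE-II was in 1 window, for a start of Krtcap2, and in 0.0365% of all windows. TGACGTG was in the window of Srpr, starting 13 bases before the start site, and in 2.01% of all windows, and CCAAT was in 48.6% of member windows and 37.4% of all.

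The windows of Krtcap2, the member with the largest total RNA rise, and of the called TRAP subunits Ssr1 and Ssr4 are shown so that the match can be seen beside windows without one. Capitals mark ERSE-II, which begins 18 bases into the transcript from that Krtcap2 start. They lie at chr3:89246223-89246522 on the + strand (Krtcap2), chr13:37994159-37994458 on the - strand (Ssr1) and chrX:73786773-73787072 on the + strand (Ssr4).
Krtcap2: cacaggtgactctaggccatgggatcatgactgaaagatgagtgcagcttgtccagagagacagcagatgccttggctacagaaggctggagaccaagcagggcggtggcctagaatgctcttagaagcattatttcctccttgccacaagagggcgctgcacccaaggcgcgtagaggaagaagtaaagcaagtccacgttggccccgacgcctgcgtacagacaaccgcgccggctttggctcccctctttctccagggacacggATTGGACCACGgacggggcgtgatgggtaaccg
Ssr1: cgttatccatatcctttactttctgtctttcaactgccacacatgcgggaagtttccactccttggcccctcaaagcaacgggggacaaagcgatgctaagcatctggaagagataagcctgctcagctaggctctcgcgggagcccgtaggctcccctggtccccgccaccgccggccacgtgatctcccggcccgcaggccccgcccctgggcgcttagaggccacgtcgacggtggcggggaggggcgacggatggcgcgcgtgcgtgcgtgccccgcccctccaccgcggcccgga
Ssr4: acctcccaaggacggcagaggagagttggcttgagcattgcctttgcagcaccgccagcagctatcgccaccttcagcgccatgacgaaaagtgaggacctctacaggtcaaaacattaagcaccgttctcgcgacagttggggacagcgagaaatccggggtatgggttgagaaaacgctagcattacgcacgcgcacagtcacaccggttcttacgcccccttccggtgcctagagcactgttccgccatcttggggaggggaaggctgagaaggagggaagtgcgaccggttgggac
Neither of these TRAP windows holds ERSE, ERSE-II or TGACGTG. A match is a description of letters, and binding of a factor there was not measured.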

How the data were processed

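RPFs and cytoplasmic total RNA were sequenced from 4 replicates each of KM_NTC and KM_4A2cr cells. For RPFs the authors trimmed reads (cutadapt 1.18), removed duplicates by molecular identifier (UMI-tools 1.0.1), aligned to 1 transcript per gene, the most abundant, and deposited counts inside the coding sequence, leaving out codons at its ends. For total RNA they deposited expected counts and TPM per isoform from RSEM 1.3.3 after Bowtie2 2.3.5.1, on GENCODE protein-coding transcripts.

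Expected counts were summed per gene and rounded, and per-isoform TPM was summed per gene. Genes passing filterByExpr were fitted in edgeR 4.0.16 (R 4.3.3) with TMM factors, terms for cell line and replicate, and the quasi-likelihood test. Translational efficiency was an interaction with 1 term per lysate, both kinds normalised separately. p-values were adjusted by Benjamini-Hochberg over all genes tested, with a threshold of 0.1. CPM uses TMM-scaled library sizes, and log2 CPM within pairs a prior count of 2. SE is the fold change divided by the root of F.

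The series design places the replicates on different days, and same-numbered RPFs deviated together in every pair (correlations 0.763, 0.782, 0.575 and 0.687; total RNA 0.756, 0.736, 0.611 and 0.708), so the pairing was the block. Members and lists were chosen with earlier results of these data known. All members could be named, with every library given for those past the threshold and the extremes given per complex. Of the other pathway genes those past it in RPFs or total RNA were named. The OST and EMC subunits among them were named too, after their values were seen. Scripts were tested on simulated data. Alternatives were another tool (DESeq2 1.42.0), other scalings, filters and thresholds, no block, left-out replicates, no chromosome 2 members and 1 isoform. A further allele of the KM mouse and 1 promoter window are not reported here.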

Additional observations from a re-analysis of the deposited data

Results flagged for a closer look

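Ssr1 RPFs in KM_4A2cr were lowest in replicate 2, at 789.7 CPM, with the other 3 between 1373 and 1469 CPM, and the gap took 0.891 of the range on the log2 scale, more than Dixon's 95% critical value for 4 samples. This was 1 of 32 groups examined, about the rate of 1 in 20 that chance gives, and KM_NTC replicate 2 was also the lowest of its line, at 528 CPM. The RPF change and the total RNA change differed for 2 members by the interaction test, Srp9 by 0.41 ± 0.12 and Sec63 by 0.32 ± 0.09 on the log2 scale, both with RPFs the higher and in 4 of 4 pairs. Within pairs the difference was 0.38, 0.31, 0.42 and 0.54 for Srp9 and 0.22, 0.26, 0.53 and 0.26 for Sec63. The interaction test was that of edgeR, and DESeq2 called Sec63 but not Srp9.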

How the results depend on the processing

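The median member changes of 0.27 in RPFs and 0.28 in total RNA stayed above 0 under every alternative run, from 0.14 to 0.41 and from 0.12 to 0.43. The lowest values came from scaling to library size alone, which moved the median of all genes to -0.14 and -0.15, so that members stood 0.28 and 0.27 above it, as with TMM scaling. Over all genes it called 482 higher and 1137 lower in RPFs, against 679 and 383 with TMM, and 262 and 868 in total RNA, against 473 and 194; upper-quartile factors gave 534 and 464, and 325 and 216. With library size alone Krtcap2 was called higher in total RNA and Srp14 lower. Member calls in RPFs (6), total RNA (2) and translational efficiency (2) moved as follows. Without the replicate block 0, 0 and 0 were called by edgeR, as were 0 of all genes. At an unadjusted p under 0.05 there were then 0, 0 and 2 members, beside 365, 362 and 506 of all genes. With a threshold of 0.05 they numbered 1, 1 and 0 (all genes higher 320, 251 and 56). DESeq2 called 12, 4 and 1 (all genes higher 671, 438 and 102), and fits with no filter on low counts 10 in RPFs and 5 in total RNA (769 and 794). Upper-quartile factors left 1 in total RNA. In translational efficiency, library size alone left 0, with 8 at an unadjusted p under 0.05, beside 1241 of all genes. Counting only the RPF isoform left 1 in translational efficiency. Leaving out 1 replicate gave 0 to 28 in RPFs, 0 to 29 in total RNA and 0 to 4 in translational efficiency. The 0 came without replicate 1, 2 or 3, and the highest counts came without replicate 4. Without replicate 1, 2 or 3, RPFs of 7, 6 and 7 members had an unadjusted p under 0.05, beside 1736, 1310 and 1362 of all genes. In total RNA 2, 3 and 3 members did, beside 1480, 1181 and 1044 of all genes. In translational efficiency 3, 5 and 8 members did, beside 912, 1102 and 1042. The translational efficiency median of 0.01 ranged from 0.01 to 0.07 over left-out replicates. The cause of these moves was not tested. For single called members, 66 alternative values kept their call, 58 kept their direction but lost it, and 0 reversed. Members of low count, such as Emc6, allow only large changes to be seen.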
